A study of Mus musculus with 6 samples.

Results

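The 9 genes described here encode the 3 TGF-beta ligands (Tgfb1, Tgfb2 and Tgfb3), the receptors Tgfbr1, Tgfbr2 and Tgfbr3, and the latent TGF-beta binding proteins Ltbp1, Ltbp2 and Ltbp3. They were chosen by name, as the rows of the deposited gene table that carry these symbols. All 9 were found, each on a single row, among 54532 genes. The fourth binding protein of the family, Ltbp4, was not among the named genes and is given with the rest of the pathway.

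TGF-beta is made as a precursor that the protease furin cuts, after which the propeptide stays wrapped around the growth factor and keeps it latent. LTBP1, LTBP3 and LTBP4 bind this latent complex and place it on fibrillin fibres of the matrix, whereas LTBP2 shares their fold but does not carry the latent complex. Integrins, thrombospondin and proteases release the active ligand, which binds TGFBR2. That receptor then phosphorylates TGFBR1, which activates SMAD2 and SMAD3. In the heart the pathway is known for the formation of the valve cushions and for the activation of fibroblasts.

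The mice were 4 days old. Poly(A) RNA from the heart gave 3 libraries from Wtap-CKO mice and 3 from Wtapflox/flox mice, which are named Wtap-flox below. In Wtap-CKO mice the Wtap gene was conditionally knocked out, and its product is part of the methyltransferase that places N6-methyladenosine on messenger RNA. The submitters describe the libraries of a group as independent biological replicates. The sources used here give neither the Cre driver and deleted exons nor sex, strain or whether hearts were pooled.

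Between 15649028 and 18045599 reads or read pairs were assigned to genes per library. The deposited unit is FPKM, in which reads are divided by the length of the gene and by a size for the library. Here that size was not the library's own read total but was proportional to a size factor, a median ratio over genes set jointly across libraries. A single read on a gene of 1 kb was worth 0.0564 to 0.0647 FPKM. Each member rested on 230 to 3305 reads per library. Wtap itself stood at 9.32, 7.75 and 9.46 FPKM in Wtap-CKO against 7.77, 8.74 and 10.9 FPKM in Wtap-flox (log2 fold change -0.04, 95% interval -0.37 to 0.29, limma adjusted p = 0.893). The value covers the whole gene and does not check the labels, so every direction below rests on the labels. The tissue matched its label, since 7 of 7 cardiomyocyte markers were expressed and summed to 14870 to 16459 FPKM in Wtap-CKO against 12868 to 16081 FPKM in Wtap-flox. Wtap-CKO 3 stood apart from the other Wtap-CKO libraries on the second principal component, which held 20.4% of the variance, and values without it are given beside the calls on the 9 genes.

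Of the 9 genes, 4 rose in Wtap-CKO hearts, namely Tgfb2, Tgfb3, Ltbp2 and Ltbp3, and 0 fell (limma on log2(FPKM + 1), Benjamini-Hochberg adjusted over all 12568 tested genes, threshold 0.05). Across those 12568 genes, 16.6% were called, 9.91% as higher and 6.69% as lower, so 4 of 9 called as higher was above that background. The 9 genes were chosen with earlier results of these data known, so this count is no independent evidence of a direction. At an unadjusted p under 0.05 the same fit gave 4 higher and 1 lower, and limma-voom on reads recovered from the FPKM values gave 4 higher and 0 lower. The split of all calls depended on scaling. As deposited 59.7% of calls were higher, while with each library set to a fixed total (TPM) the share was 33.4%, without mitochondrially encoded genes in that total 32.7%, and by limma-voom 43.5%. The median log2 fold change of all tested genes was 0.00 as deposited, -0.15 with TPM scaling and -0.14 with the total that left out mitochondrially encoded genes, so the changes are relative to the median gene.

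The ligands differed among themselves. Tgfb2 (ENSMUSG00000039239, chromosome 1, 186622792 to 186705989 on the minus strand), the isoform that depends most on TGFBR3 for presentation to the signalling receptors, stood at 23.9, 27.4 and 20.2 FPKM in Wtap-CKO 1 to 3. In Wtap-flox 1 to 3 it stood at 5.22, 6.07 and 5.18 FPKM. Every Wtap-CKO library lay above every Wtap-flox library. The mean was 23.8 ± 3.61 FPKM in Wtap-CKO and 5.49 ± 0.503 FPKM in Wtap-flox (SD, n = 3 each), a ratio of means of 4.33. On the log2(FPKM + 1) scale, which understates the change of low genes, the fold change was 1.93 (SE 0.14, 95% interval 1.61 to 2.24, limma adjusted p = 0.000204). This was rank 23 among the rises of 12568 tested genes. Without Wtap-CKO 3 it was 2.04 (adjusted p = 0.000436).

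Tgfb3 (ENSMUSG00000021253, chromosome 12, 86056745 to 86079041 on the minus strand), the ligand known for its part in palate fusion, stood at 18.9, 19.4 and 16.7 FPKM in Wtap-CKO 1 to 3 against 7.36, 7.74 and 7.04 FPKM in Wtap-flox 1 to 3. The groups did not overlap, as was so for 37.1% of all tested genes. The mean was 18.4 ± 1.44 FPKM in Wtap-CKO and 7.38 ± 0.349 FPKM in Wtap-flox (SD, n = 3 each), a ratio of 2.49, with a log2 fold change of 1.21 (SE 0.11, 95% interval 0.95 to 1.46, limma adjusted p = 0.000707). Without Wtap-CKO 3 it was 1.27 (adjusted p = 0.00118).

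Tgfb1 (ENSMUSG00000002603, chromosome 7, 25687002 to 25705077 on the plus strand), the isoform of blood and immune cells and the usual subject of fibrosis studies, stood at 10.6, 9.67 and 10.1 FPKM in Wtap-CKO 1 to 3. In Wtap-flox 1 to 3 it stood at 9.31, 10.1 and 8.97 FPKM, and the groups overlapped. Its log2 fold change was 0.09 (95% interval -0.16 to 0.34, limma adjusted p = 0.612), and the sign turned with TPM scaling and with the total that left out mitochondrially encoded genes. The upper end of its interval lay below the lower ends of those of Tgfb2 and Tgfb3. Exact two-sided permutation tests of the FPKM values gave p = 0.1 for Tgfb2 and for Tgfb3, the smallest that 3 against 3 allows, and p = 0.3 for Tgfb1.

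**Figure D1:**
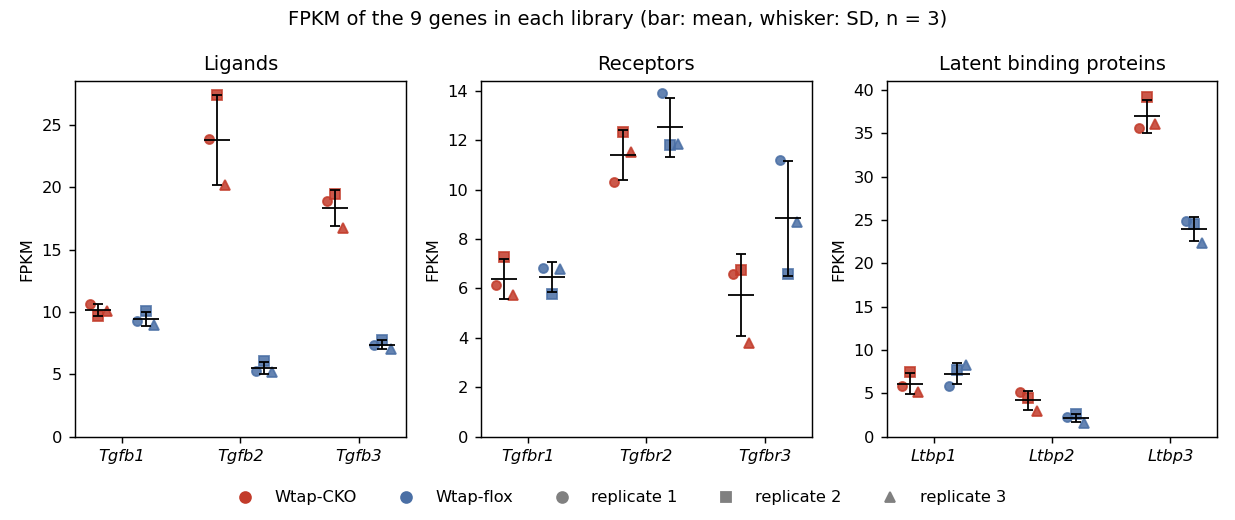
FPKM of the 9 genes (y axis) in each library, with Wtap-CKO in red to the left of Wtap-flox in blue, the replicate shown by the symbol, and the mean and SD in black (n = 3 each). The Wtap-CKO libraries lie above all Wtap-flox libraries for Tgfb2, Tgfb3, Ltbp2 and Ltbp3, and the groups overlap for the other 5 genes.

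The makeup of the ligand messages differed between the groups. Summed over the 3 ligands, Wtap-CKO hearts held 52.3 ± 4.86 FPKM and Wtap-flox hearts 22.3 ± 1.40 FPKM (SD, n = 3 each). Tgfb2 made up 45.4 ± 2.83% of that sum in Wtap-CKO and 24.6 ± 0.797% in Wtap-flox, so that the least abundant ligand of the Wtap-flox hearts was the most abundant of the Wtap-CKO hearts. Tgfb1 made up 19.5 ± 2.19% in Wtap-CKO and 42.3 ± 0.178% in Wtap-flox. The share of Tgfb3 was close in the groups, at 34.4% to 35.6% in Wtap-CKO and 32.4% to 33.6% in Wtap-flox. Per library, Tgfb2 stood at 2.0 to 2.83 times the FPKM of Tgfb1 in Wtap-CKO and at 0.561 to 0.603 times in Wtap-flox. The ratio of Tgfb2 to Tgfb3 was 1.21 to 1.41 in Wtap-CKO and 0.709 to 0.785 in Wtap-flox. These shares and ratios are compared per gene length and are given as descriptions with no test.

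**Figure D2:**
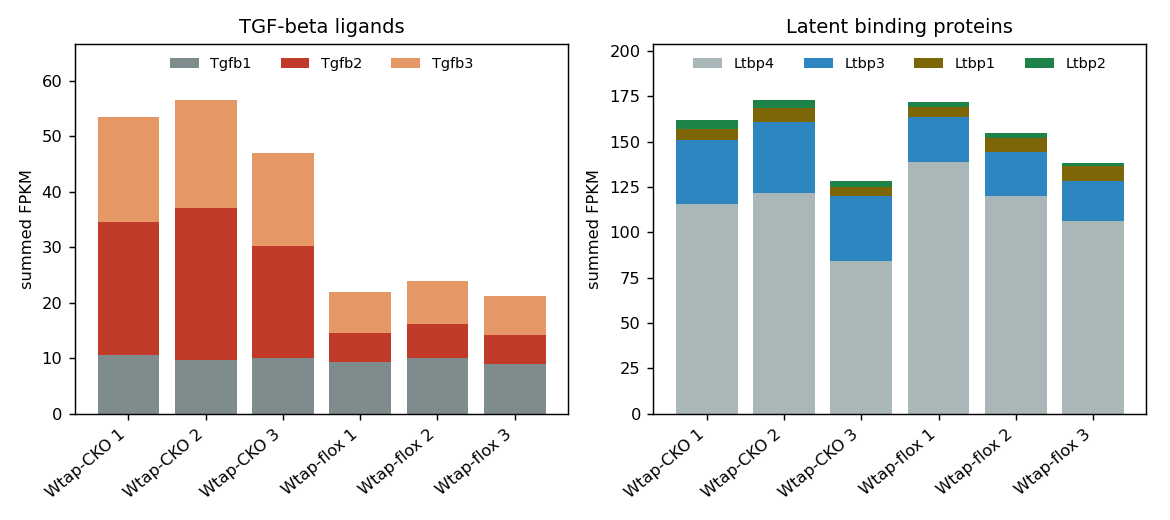
Summed FPKM per library (y axis), stacked by gene, for the 3 ligands (left panel) and for the latent binding proteins with Ltbp4 (right panel), with the Wtap-CKO libraries left of the Wtap-flox libraries. The ligand sum is 47.0 to 56.5 FPKM in Wtap-CKO and 21.2 to 23.9 FPKM in Wtap-flox, while the sums of binding proteins overlap.

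The upstream sequences of the members that rose, and of Tgfb1 as the ligand that was not called, show what stands before each start site. They are the 250 bases before the RefSeq start in GRCm38.p6, written 5′ to 3′ on the strand of the gene, and capitals mark the motifs found. RefSeq gave an upstream sequence for 7 of the 9 genes, all but Tgfb3 and Tgfbr3. The windows are chr1:186705990-186706239 on the minus strand for Tgfb2, chr7:25686752-25687001 on the plus strand for Tgfb1, chr12:84876492-84876741 on the minus strand for Ltbp2 and chr19:5740650-5740899 on the plus strand for Ltbp3.
Tgfb2: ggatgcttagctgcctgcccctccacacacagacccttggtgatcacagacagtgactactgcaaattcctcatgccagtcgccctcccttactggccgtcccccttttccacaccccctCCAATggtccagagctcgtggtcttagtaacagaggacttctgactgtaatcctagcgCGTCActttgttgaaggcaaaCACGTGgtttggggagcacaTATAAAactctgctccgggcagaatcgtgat
Tgfb1: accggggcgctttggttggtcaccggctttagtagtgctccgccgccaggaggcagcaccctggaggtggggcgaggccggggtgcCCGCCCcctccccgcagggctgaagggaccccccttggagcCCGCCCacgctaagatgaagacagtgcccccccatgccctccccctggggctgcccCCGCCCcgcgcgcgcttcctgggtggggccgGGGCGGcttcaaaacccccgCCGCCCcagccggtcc
Ltbp2: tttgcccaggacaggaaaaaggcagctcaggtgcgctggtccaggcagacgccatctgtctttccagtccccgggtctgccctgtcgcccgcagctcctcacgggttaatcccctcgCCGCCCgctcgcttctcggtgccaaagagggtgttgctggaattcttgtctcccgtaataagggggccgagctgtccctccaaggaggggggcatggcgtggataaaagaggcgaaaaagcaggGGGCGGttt
Ltbp3: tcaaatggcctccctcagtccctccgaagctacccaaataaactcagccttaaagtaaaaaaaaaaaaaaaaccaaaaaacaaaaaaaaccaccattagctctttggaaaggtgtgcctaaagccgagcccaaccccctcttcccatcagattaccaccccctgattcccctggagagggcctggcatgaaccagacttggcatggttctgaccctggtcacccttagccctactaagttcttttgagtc

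Each motif was searched on both strands. The letters were GTCTAGAC for the SMAD palindrome and TGANTCA for the AP-1 site. The cyclic AMP response element (CRE) was read as TGACGTCA, and its shorter core as TGACG, which lies within it. Others were the TEAD site GGAATG, then the E-box with the letters CACGTG, then the TATA box with the letters TATAAA, then the GC box with the letters GGGCGG and last the CAAT box with the letters CCAAT.

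The Tgfb2 window held a TATA box at -31 to -26 from the start, an E-box at -51 to -46, a CRE core at -72 to -68 on the opposite strand and a CAAT box at -130 to -126. Among 32851 mouse upstream windows of the same length, 12.4% held a TATA box, 6.02% an E-box, 17.8% a CRE core and 33.8% a CAAT box. The Tgfb1 window held none of these but 5 GC boxes, which 32.7% of windows held at least once, and G and C made up 75.2% of its bases. The Ltbp2 window held 2 GC boxes, and the Ltbp3 window held none of the motifs. The SMAD palindrome, the AP-1 site and the TEAD site were not in any of the 9 windows of the 7 genes, and 0.167%, 6.75% and 12.6% of all windows held them. A match is a description of letters and not a bound site.

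None of the 3 receptors was called (limma, 0 higher and 0 lower, with 1 lower at an unadjusted p under 0.05 and 0 called by limma-voom). Tgfbr1 (ENSMUSG00000007613, chromosome 4, 47353222 to 47414931), the type I receptor kinase, stood at 6.13, 7.28 and 5.75 FPKM in Wtap-CKO 1 to 3 against 6.82, 5.77 and 6.80 FPKM in Wtap-flox 1 to 3. The ranges lay over each other, and the log2 fold change was -0.02 (95% interval -0.30 to 0.27, adjusted p = 0.941), with a sign that turned without Wtap-CKO 1, Wtap-CKO 3, Wtap-flox 1 or Wtap-flox 3 and with array weights. Tgfbr2 (ENSMUSG00000032440, chromosome 9, 116084293 to 116175360), the type II receptor that binds the ligand first, stood at 10.3, 12.3 and 11.5 FPKM in Wtap-CKO and at 13.9, 11.8 and 11.8 FPKM in Wtap-flox. Its log2 fold change was -0.12 (95% interval -0.40 to 0.15, adjusted p = 0.529).

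Tgfbr3 (ENSMUSG00000029287, chromosome 5, 107106570 to 107289629), which encodes the co-receptor betaglycan, was the most variable of the 9 genes within groups. It stood at 6.59, 6.76 and 3.8 FPKM in Wtap-CKO 1 to 3 and at 11.2, 6.58 and 8.69 FPKM in Wtap-flox 1 to 3. Wtap-flox 2 lay within the range of Wtap-CKO. It did not pass (log2 fold change -0.56, 95% interval -1.09 to -0.02, limma unadjusted p = 0.0445, adjusted p = 0.146). Leaving out Wtap-CKO 3 gave -0.33 (adjusted p = 0.285). Summed over the 3 receptors, the level was 23.5 ± 2.67 FPKM in Wtap-CKO and 27.8 ± 3.90 FPKM in Wtap-flox (SD, n = 3 each). The ratio of summed ligand to summed receptor FPKM was 2.14 to 2.32 in Wtap-CKO and 0.686 to 0.988 in Wtap-flox, given as a description with no test.

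Among the latent binding proteins Ltbp3 and Ltbp2 rose and Ltbp1 did not pass. Ltbp3 (ENSMUSG00000024940, chromosome 19, 5740904 to 5758532 on the plus strand), a carrier of the latent complex, stood at 35.7, 39.2 and 36.1 FPKM in Wtap-CKO 1 to 3. In Wtap-flox 1 to 3 it stood at 24.8, 24.6 and 22.3 FPKM. The groups lay apart, with means of 37.0 ± 1.90 FPKM in Wtap-CKO and 23.9 ± 1.39 FPKM in Wtap-flox (SD, n = 3 each). The log2 fold change was 0.61 (SE 0.12, 95% interval 0.34 to 0.87, limma adjusted p = 0.00956) and was 0.62 without Wtap-CKO 3 (adjusted p = 0.0140).

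Ltbp2 (ENSMUSG00000002020, chromosome 12, 84783212 to 84876532 on the minus strand), a matrix protein of elastic fibres, stood at 5.14, 4.41 and 2.95 FPKM in Wtap-CKO 1 to 3 and at 2.27, 2.54 and 1.59 FPKM in Wtap-flox 1 to 3. The groups did not overlap, but Wtap-CKO 3 lay close above the highest Wtap-flox library. The log2 fold change was 0.71 (SE 0.19, 95% interval 0.28 to 1.14, limma adjusted p = 0.0346). The call was lost without Wtap-CKO 1 (adjusted p = 0.111), Wtap-CKO 2 (0.0798), Wtap-flox 1 (0.0777), Wtap-flox 2 (0.0538) or Wtap-flox 3 (0.107). It held without Wtap-CKO 3, at 0.89 (adjusted p = 0.0119). Of the 4 calls it was the least stable.

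Ltbp1 (ENSMUSG00000001870, chromosome 17, 75005568 to 75392512 on the plus strand), the first described carrier of latent TGF-beta, stood at 5.81, 7.44 and 5.10 FPKM in Wtap-CKO and at 5.85, 7.70 and 8.23 FPKM in Wtap-flox. The groups overlapped, and the log2 fold change was -0.22 (95% interval -0.59 to 0.15, adjusted p = 0.406). With Ltbp4 included, the binding proteins summed to 154 ± 23.3 FPKM in Wtap-CKO and 155 ± 16.6 FPKM in Wtap-flox (SD, n = 3 each). Ltbp4 held 69.1 ± 3.09% of the sum in Wtap-CKO and 78.4 ± 2.15% in Wtap-flox. Ltbp3 held 24.3 ± 3.39% in Wtap-CKO and 15.5 ± 0.895% in Wtap-flox. Neither share overlapped between the groups, and no test was made of them. Exact two-sided permutation tests of the FPKM values gave p = 0.1 for Ltbp2 and Ltbp3, 0.2 for Ltbp1, 0.3 for Tgfbr3, 0.4 for Tgfbr2 and 0.9 for Tgfbr1.

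**Figure D3:**
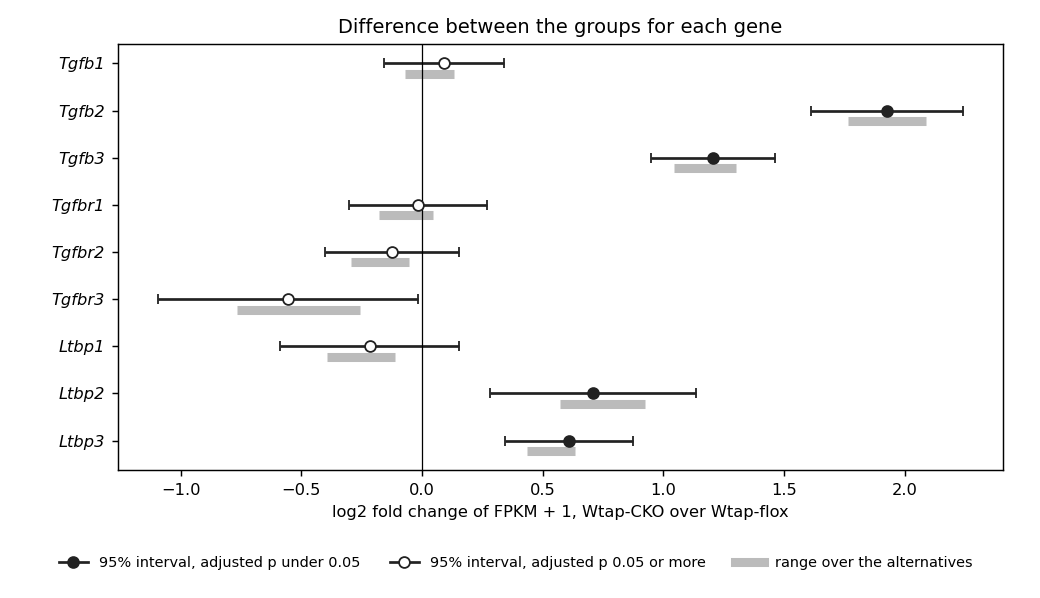
Log2 fold change of FPKM + 1, Wtap-CKO over Wtap-flox (x axis), for each of the 9 genes, with the 95% interval from limma. Filled points passed an adjusted p of 0.05, and grey bars give the lowest and highest value over the alternative settings. The bars of Tgfb2 (1.77 to 2.09), Tgfb3 (1.04 to 1.30), Ltbp2 (0.57 to 0.92) and Ltbp3 (0.44 to 0.64) stay above 0, and those of Tgfb1 and Tgfbr1 cross it.

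Other annotated genes overlap Tgfb2, Tgfb3, Tgfbr3, Ltbp1 and Ltbp2, and the sources do not say how reads in shared bases, or on which strand, were counted. Of these, Ttll5, whose span on the other strand shares 5149 bases with that of Tgfb3, had the highest level. It stood at 0.632 ± 0.10 FPKM in Wtap-CKO and 1.16 ± 0.102 FPKM in Wtap-flox (SD, n = 3 each). Shared bases are given over whole gene spans, introns included, and so are not all bases in which reads were counted. The antisense gene Gm29491, which shares 295 bases with Tgfb2, stood at 0.238 ± 0.245 FPKM in Wtap-CKO and 0.112 ± 0.193 FPKM in Wtap-flox. The rises of Tgfb2 and Tgfb3 were each larger than the whole level of their overlapping genes.

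The order of the 9 levels, compared per gene length in FPKM, was not the same in the groups. In Wtap-CKO it was Ltbp3 (37.0), Tgfb2 (23.8), Tgfb3 (18.4), Tgfbr2 (11.4), Tgfb1 (10.1), Tgfbr1 (6.39), Ltbp1 (6.12), Tgfbr3 (5.72) and Ltbp2 (4.16). There the first 3 stood apart from each other and from the rest in every library, Tgfbr2 and Tgfb1 overlapped, and so did each neighbouring pair from Tgfbr1 to Ltbp2. In Wtap-flox it was Ltbp3 (23.9), Tgfbr2 (12.5), Tgfb1 (9.45), Tgfbr3 (8.83), Tgfb3 (7.38), Ltbp1 (7.26), Tgfbr1 (6.46), Tgfb2 (5.49) and Ltbp2 (2.13). There Ltbp3, Tgfbr2 and Ltbp2 stood apart from their neighbours, and each neighbouring pair from Tgfb1 to Tgfb2 overlapped. Within the Wtap-CKO group, Wtap-CKO 3 was the lowest library for 6 of the 9 genes and Wtap-CKO 2 the highest for 7. Of all tested genes 38.3% were lowest in Wtap-CKO 3 and 33.6% highest in Wtap-CKO 2.

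For each gene that rose, the profiles over the 6 libraries were set beside those of 6973 protein coding genes averaging 5 FPKM or more, each centred on its own mean on the log2(FPKM + 1) scale. Nearest to Tgfb2 were Shisa4, a membrane protein gene (root mean square difference 0.14), and glutamine synthetase Glul (0.16). Glul stood at 125 to 163 FPKM in Wtap-CKO and at 38.3 to 52.0 FPKM in Wtap-flox. Nearest to Tgfb3 were Bcr (0.048) and Rhou (0.058). Nearest to Ltbp2 were the integrin subunit gene Itga1 (0.099) and Smad6 (0.12), and nearest to Ltbp3 were the deubiquitinase gene Usp10 (0.036) and the zinc finger gene Zfp777 (0.037).

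Beyond the 9 genes, 96 other genes of the pathway were listed, of which 84 were tested. Of these 26 rose and 4 fell, against the 9.91% and 6.69% of all tested genes, and their median log2 fold change was 0.15. The same shares of all tested genes are the background for the counts of each pathway and marker list below. The lists were chosen with earlier results of these data in view, so their counts describe these genes and are no independent evidence of a direction.

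**Figure D4:**
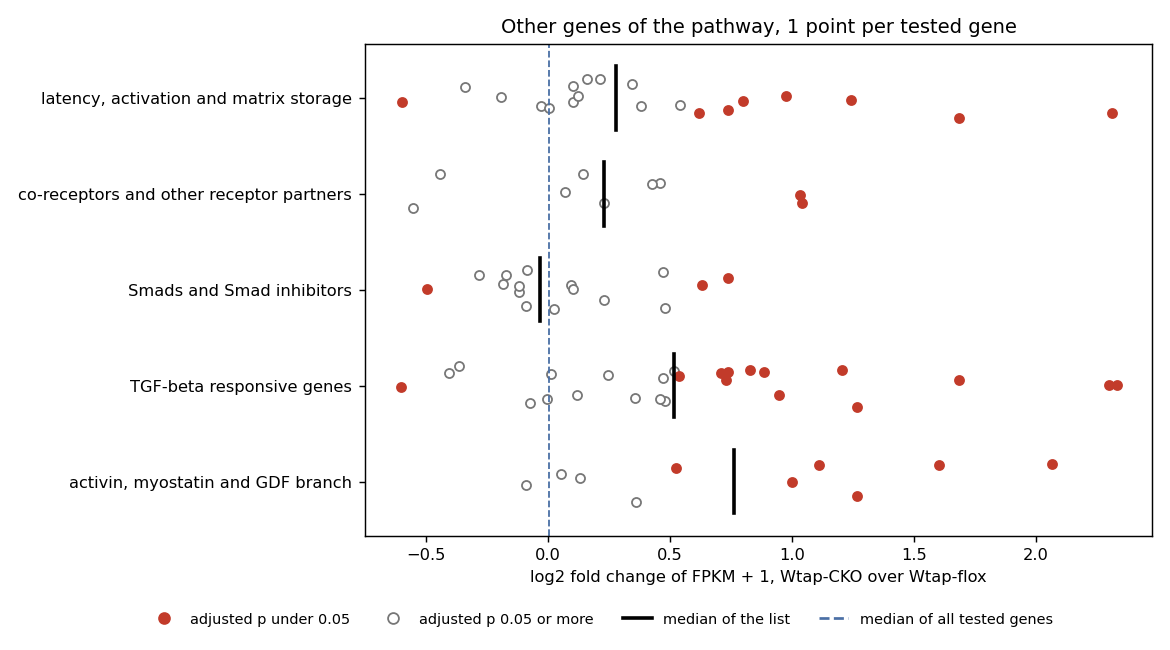
Log2 fold change of FPKM + 1, Wtap-CKO over Wtap-flox (x axis), with 1 point per tested gene in 5 lists of pathway genes (y axis). Red points passed an adjusted p of 0.05 (limma), black bars are list medians and the dashed line is the median of all tested genes. The medians run between -0.03 for the Smads and Smad inhibitors and 0.76 for the activin, myostatin and GDF branch.

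Genes that store or release the latent ligand were the next step of the pathway, and 7 of 20 tested rose and 1 fell (median log2 fold change 0.28, against 0.00 for all tested genes). Adamtsl2, a matrix protein that binds LTBP1 and fibrillin, stood at 19.8, 13.8 and 12.5 FPKM in Wtap-CKO against 2.23, 2.13 and 2.34 FPKM in Wtap-flox (log2 fold change 2.32, limma adjusted p = 0.000204). Thrombospondin 1 (Thbs1), which can activate latent TGF-beta, stood at 46.0, 57.5 and 42.6 FPKM in Wtap-CKO against 13, 19.7 and 11.4 FPKM in Wtap-flox (1.69, adjusted p = 0.00156). The integrin subunits Itgb5 (0.98, adjusted p = 0.0033) and Itgav (0.80, adjusted p = 0.0126), which pair as a receptor for the propeptide, both rose. Transglutaminase Tgm2, which crosslinks latent complexes to the matrix, also rose (1.25, adjusted p = 0.00400).

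The decorin gene Dcn, whose product binds TGF-beta in the matrix and which also marks fibroblasts, fell by 0.60 (adjusted p = 0.0336), with 27.6 to 37.8 FPKM in Wtap-CKO and 44.2 to 55.6 FPKM in Wtap-flox. Its relative Bgn rose by 0.74. The call on Dcn was lost without any 1 library other than Wtap-CKO 3 (adjusted p up to 0.124), and that on Bgn without Wtap-CKO 1 (0.0542). Fbn2 (0.62, adjusted p = 0.0460) also counted among the 7, and its call was lost without any 1 library other than Wtap-CKO 3 (adjusted p up to 0.125). The fibrillin gene Fbn1 (0.21), Ltbp4 (-0.19), Furin (0.54, adjusted p = 0.0525) and the integrin subunit Itgb1 (0.35) did not pass, nor did Lrrc32 (0.16) and Nrros (-0.03), which tether latent TGF-beta to cell surfaces. The integrin subunits Itgb6 and Itgb8 and the protease Mmp9 averaged under 1 FPKM and were not tested. Itgb6 averaged 0.136 FPKM in Wtap-CKO and 1.15 FPKM in Wtap-flox, opposite in direction to Itgb5 and Itgav. Itgb8 averaged 0.256 FPKM in Wtap-CKO and 0.370 FPKM in Wtap-flox, and Mmp9 0.613 FPKM in Wtap-CKO and 0.271 FPKM in Wtap-flox.

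Of 9 tested co-receptors and receptor partners 2 rose and 0 fell (limma, with 2 lower at an unadjusted p under 0.05 and 2 lower by limma-voom, median 0.23). They were Bambi, a pseudoreceptor that blocks TGF-beta receptors, at 12.5, 11.5 and 12.1 FPKM in Wtap-CKO against 5.29, 4.82 and 6.05 FPKM in Wtap-flox (1.03, adjusted p = 0.00120), and vasorin (Vasn), which binds and traps TGF-beta, at 25.4, 25.9 and 18.7 FPKM in Wtap-CKO against 10.3, 11.2 and 10.6 FPKM in Wtap-flox (1.04, adjusted p = 0.00246). Endoglin (Eng), an endothelial co-receptor, had 0.46 (adjusted p = 0.0553). Neo1 had -0.55 (adjusted p = 0.0526). Both missed the threshold although the groups did not overlap, and Neo1 was called lower in 9 of 19 alternatives, TPM scaling (adjusted p = 0.0302) and limma-voom (0.0135) among them.

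Among 16 tested Smads and their regulators 2 rose and 1 fell, with a median of -0.03. These counts lay near the 9.91% called higher and 6.69% called lower among all tested genes. The inhibitory Smads Smad7 (0.74, adjusted p = 0.0281) and Smad6 (0.63, adjusted p = 0.0356) rose. Smad7 stood at 17.1, 17.4 and 12.1 FPKM in Wtap-CKO and at 7.54, 11.3 and 7.98 FPKM in Wtap-flox. Smad3, a signal transducer of the pathway, fell by 0.50 (adjusted p = 0.0385), with 5.21, 6.53 and 5.62 FPKM in Wtap-CKO and 9.52, 8.99 and 7.26 FPKM in Wtap-flox. The other transducers Smad2 (-0.09) and Smad4 (-0.09) did not pass. These 3 calls depended on single libraries. Smad7 was lost without Wtap-CKO 1, Wtap-CKO 2, Wtap-flox 1 or Wtap-flox 3 (adjusted p up to 0.0943) and Smad6 without any 1 library other than Wtap-CKO 3 (up to 0.103). Smad3 was lost without Wtap-CKO 1, Wtap-CKO 3, Wtap-flox 1 or Wtap-flox 2 (up to 0.128), while without Wtap-CKO 3 4 members of the list rose and 0 fell. Smad7 and Smad6 also missed the threshold with TPM scaling (0.0637 and 0.0955). Pmepa1 (0.48, adjusted p = 0.0676) and Skil (0.47, adjusted p = 0.0713), both feedback inhibitors, did not pass.

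Of 25 tested genes known to respond to TGF-beta, 12 rose and 1 fell, with a median of 0.52. Ltbp2 is among the 12, as are Thbs1 and Smad7, which were already counted in the storage list and the Smad list. Ctgf, a matricellular gene that also responds to YAP, stood at 376, 392 and 365 FPKM in Wtap-CKO against 48.0, 111 and 76.6 FPKM in Wtap-flox (log2 fold change 2.33, limma adjusted p = 0.00153). Junb had 1.27 (adjusted p = 0.00444), and Snai1 (0.83) rose while Snai2 fell by 0.60 (adjusted p = 0.0130), although both encode repressors of the epithelial programme.

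Among the matrix genes of the same list, Col1a1 (0.01), Col1a2 (0.00), Col3a1 (-0.41), Postn (-0.07), Fn1 (0.46) and Tgfbi (0.25) did not pass, while Lox, which crosslinks collagen, rose by 1.21. The counts of the list varied with single libraries, from 6 higher without Wtap-flox 1 and 7 without Wtap-flox 3 or Wtap-CKO 2 to 13 without Wtap-CKO 3. The count was 8 with TPM scaling and 6 with no filter on low values. Lox was lost without Wtap-CKO 2, Wtap-flox 1 or Wtap-flox 3 (adjusted p up to 0.0747).

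The list of the related activin, myostatin and GDF branch held 6 risen and 0 fallen among 10 tested genes (limma, 0 lower also at an unadjusted p under 0.05 and by limma-voom, median 0.76). Activins and myostatin act through other receptors onto SMAD2 and SMAD3, but not every gene of the list encodes such a ligand. The inhibin and activin subunit genes Inha (1.27, adjusted p = 0.00220), Inhba (1.0, adjusted p = 0.00236) and Inhbb (1.11, adjusted p = 0.00175) rose. Inhbb averaged 3.17 FPKM in Wtap-CKO and 0.936 FPKM in Wtap-flox, so it passed the filter of 1 FPKM only through its Wtap-CKO values. Inhba stood at 5.53, 4.23 and 4.49 FPKM in Wtap-CKO against 1.60, 2.21 and 1.80 FPKM in Wtap-flox. Fstl3, a secreted inhibitor of activin, stood at 9.60, 10.2 and 7.47 FPKM in Wtap-CKO against 2.13, 3.06 and 1.82 FPKM in Wtap-flox (1.60, adjusted p = 0.000906). The stress cytokine gene Gdf15 rose by 2.07 (adjusted p = 0.00273). Fstl1, a secreted relative of follistatin, was the sixth (0.52, adjusted p = 0.0454), with 157 to 199 FPKM in Wtap-CKO and 118 to 129 FPKM in Wtap-flox. Its call was lost in 11 of 19 alternatives, among them TPM scaling (0.135), quantile normalization (0.235) and each single library left out other than Wtap-CKO 3 (up to 0.172). The activin receptors Acvr1b (-0.09) and Acvr2a (0.13) did not pass, as none of the 3 TGF-beta receptors did.

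In whole hearts, a change in the number of cells of a type and a change in RNA per cell cannot be told apart. Markers of several other cell types moved with the groups, and their part in the changes of the 9 genes was not tested. The 8 macrophage markers summed to 52.4 to 84.6 FPKM in Wtap-CKO and 36.1 to 40.2 FPKM in Wtap-flox, with 3 of 7 tested called higher, among them C1qb (0.94). That count was 0 without Wtap-flox 1 or Wtap-flox 2, 1 without Wtap-CKO 1 or Wtap-flox 3 and 2 without Wtap-CKO 3. The 5 endocardial markers summed to 44.7 to 53.8 FPKM in Wtap-CKO and 27.0 to 33.1 FPKM in Wtap-flox. Most of that difference was Plvap, at a mean of 34.3 FPKM in Wtap-CKO and 17.3 FPKM in Wtap-flox. Plvap (0.96) was the 1 of 5 called, while Npr3 (0.20), Nfatc1 (0.04), Cytl1 (-0.01) and Foxc1 (-0.07) were not. The 6 epicardial markers summed to 35.7 to 43.5 FPKM in Wtap-CKO and 27.9 to 31.6 FPKM in Wtap-flox. Of 3 tested, 1 was called higher, Krt19 (1.35), while Wt1 (0.22) and the most abundant, Aldh1a2 (0.28), were not called.

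The 6 platelet markers summed to 8.64 to 15.5 FPKM in Wtap-CKO and 6.21 to 8.34 FPKM in Wtap-flox, nearly all of it Pf4, and Gp1bb was at 0 in all 6 libraries. The 7 monocyte and neutrophil markers summed to 13, 9.42 and 75.9 FPKM in Wtap-CKO and 5.17 to 9.07 FPKM in Wtap-flox, so that Wtap-CKO 3 stood far above every other library. The calls on Tgfb2, Tgfb3, Ltbp2 and Ltbp3 held without that library. Leaving it out does not test the part of any cell type in these calls. The 7 fibroblast markers summed to 337 to 449 FPKM in Wtap-CKO and 425 to 496 FPKM in Wtap-flox, with 0 higher (limma, 0 also at an unadjusted p under 0.05 and by limma-voom) and 3 of 7 called lower, Lum, Dcn and Dpt, of which 1 was called without any single library other than Wtap-CKO 3. The 7 smooth muscle and pericyte markers summed to 762 to 990 FPKM in Wtap-CKO and 602 to 827 FPKM in Wtap-flox, with Cnn1 (1.11) higher and Abcc9 (-1.13) lower, and Cnn1 was lost without Wtap-CKO 1 (adjusted p = 0.0525) or Wtap-flox 3 (0.0521). The 7 endothelial markers summed to 212 to 231 FPKM in Wtap-CKO and 218 to 248 FPKM in Wtap-flox. Emcn (0.87) was called higher and Kdr (-0.43) lower, and the call on Kdr was lost without any single library (adjusted p 0.0589 to 0.161). The most abundant of these markers, Cdh5 (-0.13), Pecam1 (0.14) and Tie1 (-0.19), were not called.

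Lists for atrium, red cells and skeletal muscle stand for tissue that a dissected heart can hold. The 6 atrial markers summed to 51.8 to 98.9 FPKM in Wtap-CKO and 70.7 to 187 FPKM in Wtap-flox, and the fold changes of single genes differed in sign. Myl4, an atrial myosin light chain, was called higher (log2 fold change 1.37, limma adjusted p = 0.0194), with 30.3 to 60.5 FPKM in Wtap-CKO and 11.9 to 20.1 FPKM in Wtap-flox, and the call was lost without Wtap-CKO 3 (0.0634) and with no filter on low values (0.0531). Myl7, another atrial light chain, had 16.9 to 44.8 FPKM in Wtap-CKO and 52.4 to 154 FPKM in Wtap-flox, without overlap, and was not called (-1.78, adjusted p = 0.0720), though it was called lower without Wtap-CKO 3 (0.0424), without Wtap-flox 2 (0.0372) or without robust moderation (0.0323). Bmp10 averaged 0.0932 FPKM in Wtap-CKO and 0.863 FPKM in Wtap-flox and was not tested. The 5 erythroid markers, mostly globins, ran over each other at 1142 to 1948 FPKM in Wtap-CKO and 602 to 2076 FPKM in Wtap-flox. Of the 7 skeletal muscle markers only Ckm, which cardiomyocytes also express, averaged at least 1 FPKM. Ckm was called lower (-0.60, adjusted p = 0.0344), with 228 to 268 FPKM in Wtap-CKO and 364 to 425 FPKM in Wtap-flox, and the call was lost without any single library other than Wtap-CKO 3 (adjusted p up to 0.146). Myod1 and Pax7 were at 0 in all 6 libraries. The 5 T cell markers each averaged under 1 FPKM.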

How the data were processed

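Whole heart RNA of mice aged 4 days was measured in 6 libraries, 3 per group as the labels give them. Per the submitters' processing notes, the tools were HISAT2 2.0.5 for alignment, featureCounts 1.5.0-p3 for counting, CASAVA and DESeq2 1.20.0. The authors deposited FPKM per gene for 54532 genes with 1 column per library, and 0 per-sample columns were left unused. FPKM times the deposited gene length in bases came out as whole multiples of a single step in 100% of values above 0, within 0.01 of a step. The library sizes this gives were proportional to size factors from median ratios, which means joint scaling of the columns. GRCm39 is the build named, yet 94.9% of 20454 protein coding genes matched GRCm38.p6 within 1000 bases and 3.30% of 21715 matched GRCm39, so coordinates are GRCm38.

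The 12568 genes that averaged 1 FPKM or more entered a two-sided limma 3.58.1 fit in R 4.3.3 on log2(FPKM + 1), moderated robustly with a trend in the variance and adjusted by Benjamini-Hochberg at 0.05. The procedure was tested on simulated data. Fold changes put Wtap-CKO on top, and intervals are at 95%. The 9 genes, the lists and the tests were chosen with earlier results of these data known. All 184 listed symbols were found, each on a single gene. From each pathway list the text names up to 4 genes ranked first by adjusted p, plus the top gene of the other direction. For marker lists the rule was the most abundant genes. There the text names mainly genes that were called. Genes named beyond this rule were chosen after their values were seen. Some genes and a pathway list that the rule would name are not reported here. Nearest profiles were the 2 with the smallest root mean square difference. Upstream sequences are from RefSeq. Python 3.11.15 with pandas 2.3.3, numpy 2.4.6 and matplotlib 3.10.9 wrote the tables and plots. Alternatives were pseudocounts of 0.1 and 0.5, other filters and scalings, limma without trend or robust moderation, array weights, a replicate block, limma-voom on recovered reads and each library left out. Equal replicate numbers were not taken as pairs, since same-numbered libraries did not deviate together. With 3 libraries per group that check cannot exclude pairing.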

Additional observations from a re-analysis of the deposited data

How the results depend on the processing

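Across 19 alternatives Tgfb2, Tgfb3 and Ltbp3 kept their direction and an adjusted p under 0.05 (limma), with Ltbp3 nearest the threshold at 0.0461 in the total that left out mitochondrially encoded genes. Ltbp2 was called in 10 of 18. It was lost with no filter (adjusted p = 0.108), TPM scaling (0.0751), the total without mitochondrially encoded genes (0.0759) and 5 of the 6 fits with a library left out, and it fell under the filter of 5 FPKM. The other 5 genes were not called in any, Tgfbr3 having adjusted p between 0.0736 and 0.363. The sign of Tgfb1 turned with TPM scaling (-0.064) and without mitochondrially encoded genes (-0.07). That of Tgfbr1 turned with array weights (0.0295) and with a library left out (-0.1022 to 0.0458), and that of Wtap with array weights (0.0076) and with a library left out (-0.1343 to 0.0863). The cause was not tested.

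With no filter 1206 of all tested genes were called, 723 higher and 483 lower, and 17 of the other pathway genes rose. At a mean of at least 5 FPKM 471 were lower. TPM scaling gave 796 higher and 1584 lower, and the total without mitochondrially encoded genes 774 and 1590, with 8 other pathway genes lower in each. Array weights gave 3732 calls, 2056 higher and 1676 lower. Limma-voom gave 1476 lower, with 8 other pathway genes lower. With a library left out, calls ran from 1195 (without Wtap-CKO 1 or Wtap-flox 2, and close to it without Wtap-flox 1 or 3, at 1251 and 1277) to 2012 without Wtap-CKO 3 (709 to 1194 higher and 428 to 818 lower), members higher from 3 to 4, and other pathway genes from 18 to 29 higher and 2 to 4 lower. Those fits have fewer samples. The replicate block is reported only as a hint, since the correlations of same-numbered libraries were -0.22, -0.08 and -0.08, and with it 4 members rose and 1569 of 2086 calls were kept. Depth limits Ltbp2 most among the 9 genes, with 230 to 679 reads per library.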
